A study of Mus musculus with 3 samples.

Results

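The 10 genes described here are *Pou5f1*, *Nanog*, *Esrrb*, *Zfp42*, *Utf1*, *Dppa2*, *Dppa4*, *Dppa5a*, *Tdgf1* and *Alpl*, all known from pluripotent mouse cells. They were read from the 15 array probes whose RefSeq transcript belongs to one of them, among 20145 genes that could be named on the array. *Dppa5a* and *Alpl* were selected on their measured log2 differences, being among the genes lowest in sorted GFP+ cells relative to GFP- cells of the ES culture, so their values in that contrast are a description and support nothing. In that contrast they ranked 2 and 3 of 18655 genes from the lowest, between *Gm4710* with a log2 difference of -5.32 at rank 1 and *Iqgap3* with -4.02 at rank 4.

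Sorted cells of 3 populations were measured, each on 1 one-color array. ES-Lhx6-GFP+ cells (ES-GFP+ below) and ES-Lhx6-GFP- cells (ES-GFP- below) came from the same kind of culture, J14 ES cells of the 129S4/SvJae strain, labelled male, that carry an Lhx6-GFP BAC transgene and a 692-mCherry enhancer reporter delivered by virus. Both were taken on day 12 (D12) of the ES-MGE protocol, in which aggregates received Dkk-1, an inhibitor of Wnt signalling, at 100 ng/ml and SAG, an activator of hedgehog signalling, at 6 nM. MGE-GFP+ cells were sorted without culture from the medial ganglionic eminence (MGE), the ventral forebrain region that gives rise to cortical interneurons, of E12.5 embryos labelled female that carry the Lhx6-GFP BAC on a CD1 background. GFP in all 3 populations was driven by *Lhx6* regulatory sequences in a BAC, and not by the endogenous locus. Per the study's methods, virus-carrying ES lines were picked as clones, J14 cells were kept on SNLB feeder cells, and the second cassette of the reporter virus drives a blasticidin resistance gene from the Rex-1 promoter, Rex-1 being another name of *Zfp42*. MGE-GFP+ cells differ from both ES-derived populations in strain, labelled sex, transgenes and origin, which cannot be told apart here. No array of undifferentiated ES cells was analysed here, so the levels were not set against those of pluripotent cells, and whether they are residual was not tested.

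Pluripotent cells keep their state through a network of transcription factors in which Oct4 (*Pou5f1*), Nanog and Sox2 bind each other's regulatory sequences, with *Esrrb* and *Zfp42* as further members of the naive state. Oct4 and Sox2 often bind side by side at a composite element made of an octamer and a Sox site. *Dppa2*, *Dppa4* and *Utf1* encode chromatin-associated proteins, *Dppa5a* an RNA-binding protein, *Tdgf1* the Nodal co-receptor Cripto, and *Alpl* the tissue-nonspecific alkaline phosphatase used to stain ES cell colonies. *Alpl* is also made outside pluripotent cells, as in bone and endothelium, and most of these genes are silenced as ES cells become neural.

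The RefSeq table of GRCm38.p6 holds promoter windows for 7 of the 10 genes, and *Dppa2*, *Dppa4* and *Dppa5a* have no entry. Those of *Nanog*, *Zfp42*, *Utf1* and *Alpl* are shown because they hold the letters known from regulation of this network or belong to genes with large differences. Each runs over the 250 bases before the annotated start, 5′ to 3′. Capitals mark the octamer core TTTGCAT, the same core followed after 1 base by the Sox site ACAATG, and the GC box GGGCGG, on either strand.
Nanog (chr6:122707239-122707488, plus strand): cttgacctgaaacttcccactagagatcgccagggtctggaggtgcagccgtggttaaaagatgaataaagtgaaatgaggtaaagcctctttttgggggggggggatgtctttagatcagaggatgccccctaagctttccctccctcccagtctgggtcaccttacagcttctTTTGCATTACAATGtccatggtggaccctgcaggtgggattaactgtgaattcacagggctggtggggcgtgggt
Zfp42 (chr8:43307010-43307259, minus strand): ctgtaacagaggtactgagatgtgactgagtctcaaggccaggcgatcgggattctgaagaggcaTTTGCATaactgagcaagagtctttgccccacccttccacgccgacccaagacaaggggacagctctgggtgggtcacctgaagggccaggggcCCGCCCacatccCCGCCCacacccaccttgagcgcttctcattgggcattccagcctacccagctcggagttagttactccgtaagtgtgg
Utf1 (chr7:139943606-139943855, plus strand): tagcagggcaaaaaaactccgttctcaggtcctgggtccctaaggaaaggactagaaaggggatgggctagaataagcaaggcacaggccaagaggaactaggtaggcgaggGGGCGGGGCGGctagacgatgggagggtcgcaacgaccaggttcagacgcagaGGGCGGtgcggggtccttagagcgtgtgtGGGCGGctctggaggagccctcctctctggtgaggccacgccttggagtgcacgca
Alpl (chr4:137796385-137796634, minus strand): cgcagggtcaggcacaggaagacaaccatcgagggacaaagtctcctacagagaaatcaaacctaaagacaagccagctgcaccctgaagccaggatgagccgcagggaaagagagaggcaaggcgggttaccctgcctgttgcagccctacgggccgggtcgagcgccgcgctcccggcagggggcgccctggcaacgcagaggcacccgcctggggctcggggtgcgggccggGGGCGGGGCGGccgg

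Over all 32851 windows of the same length, 4.12% hold the octamer core on either strand and 32.7% the GC box. The octamer core with the Sox site, which contains the octamer core, is in 2 windows, both of *Nanog* and overlapping each other. Among the 11 windows of these genes the octamer core is in 3, those of *Nanog* and *Zfp42*. The GC box is in 5, with 4 copies before *Utf1*, some of which overlap, and 2 overlapping copies before *Alpl*. Another set of letters, AAGGTCA, the half-site of estrogen-related receptors such as Esrrb, is in 4.08% of all windows and in 0 of these 11. A match is a description of letters and not of binding.

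One array stood apart. The 106 control probes against viral E1A and synthetic ERCC RNA, which match no mouse gene by design, had a median intensity of 69.9 for ES-GFP+, 11.5 for ES-GFP- and 7.73 for MGE-GFP+ cells. Their 95th percentile was 377, 208 and 152, and a gene is called above the control probes where at least 1 of its probes passed it, as 47.0%, 57.5% and 52.5% of the 20145 genes did. The part of these raised control signals in the results was not tested. Intensities are background-subtracted and in arbitrary units, and for differences log2 was taken after division by the 75th percentile of each array (747, 843 and 576). With 1 array per population there was no test and no replicate check, the number of arrays limits the precision, and a difference was set only against 2 SDs of repeat spots on the arrays, which is printing and reading error. *Lhx6*, whose transgene defined the sort, had an intensity of 22250 in ES-GFP+, 4061 in ES-GFP- and 29403 in MGE-GFP+ cells. All 10 MGE neuron markers examined were above the control probes on all 3 arrays, the ES-GFP- array included.

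At least 1 probe of 9 of the 10 genes was above the control probes on the ES-GFP- array, all but *Dppa2*. The same held for 2 on the ES-GFP+ array (*Nanog* and *Tdgf1*) and for 3 on the MGE-GFP+ array (*Nanog*, *Dppa4* and *Tdgf1*). Of all genes, 57.5%, 47.0% and 52.5% were above the control probes on these arrays, in this order. By a weaker criterion, the software's own call of a probe well above background, 12 of 15 probes passed in ES-GFP+, 14 in ES-GFP- and 10 in MGE-GFP+ cells. Of all 55681 mouse probes 90.6%, 80.3% and 77.1% passed, in the same order. In RNA of bulk samples, fewer cells of a type and less RNA per cell cannot be told apart.

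**Figure D1:**
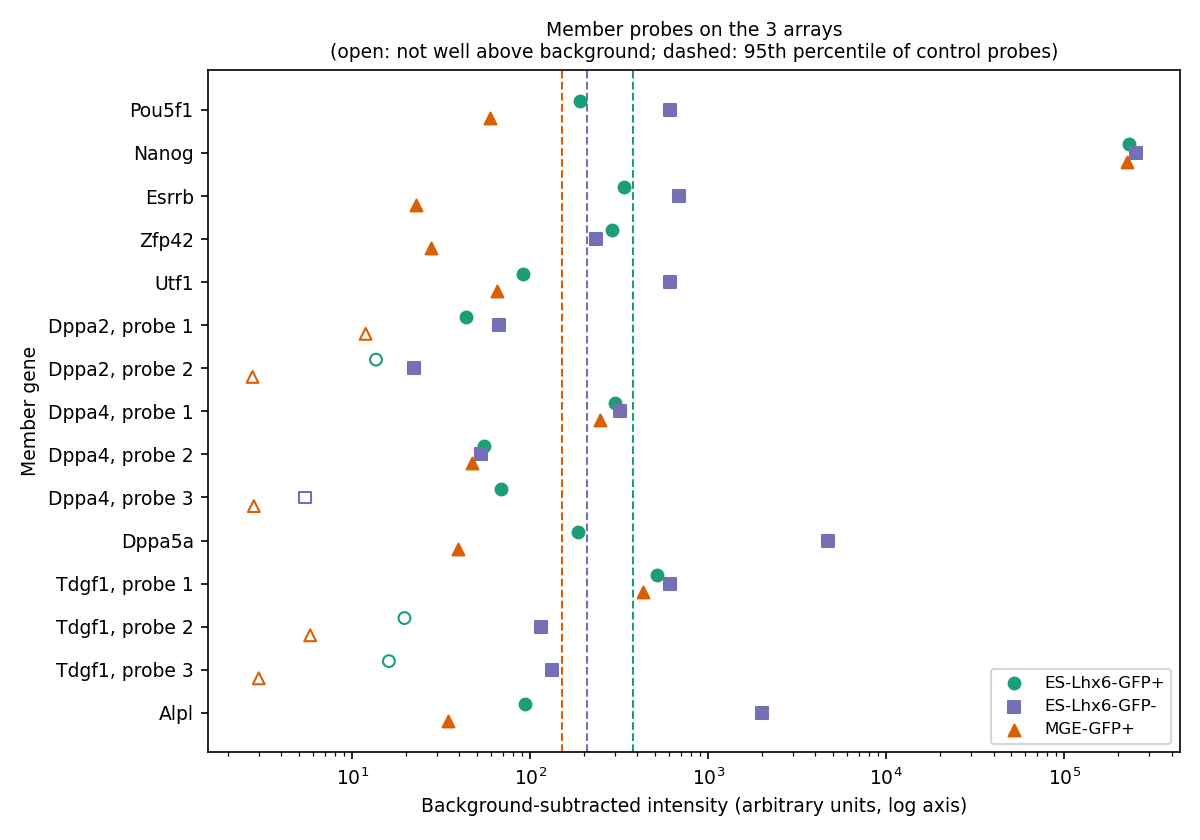
Background-subtracted intensity of the 15 probes on each array, on a log axis. Open symbols were not well above background and dashed lines are the 95th percentiles of the control probes (377, 208 and 152). The squares of ES-GFP- cells lie far to the right for *Dppa5a* and *Alpl*, while *Nanog* lies at the right edge on all 3 arrays.

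*Pou5f1* (NM_013633), which encodes Oct4, had an intensity of 192 in ES-GFP+, 612 in ES-GFP- and 59.2 in MGE-GFP+ cells. ES-GFP- cells were high, above 103 of the 106 control probes, and the other populations lay within the control range. *Pou5f1* was 2.83-fold lower in ES-GFP+ than in ES-GFP- cells, a log2 difference of -1.50 against a repeat-spot limit of 0.38. In MGE-GFP+ cells it was 7.06-fold lower than in ES-GFP- cells and 2.50-fold lower than in ES-GFP+ cells. The second log2 difference, -1.32, was -0.31 in the deposited values, -0.41 for quantile-normalized arrays and -0.57 with scaling to the 50th percentile. RefSeq lists 7 pseudogenes related to *Pou5f1*, 2 to *Nanog*, 1 to *Zfp42*, 2 to *Dppa5a* and 2 to *Tdgf1*. The files give no probe sequences, so whether a probe also matches such a copy was not tested.

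*Nanog* (NM_028016), the homeobox factor of the naive state, had an intensity of 230708 in ES-GFP+, 251126 in ES-GFP- and 225105 in MGE-GFP+ cells. These were above every control probe on each array, and only 63, 50 and 68 of the 55681 mouse probes were brighter. The 3 populations were close to each other, with a log2 difference of 0.05 between ES-GFP+ and ES-GFP- cells that was within the repeat-spot limit of 0.26. MGE-GFP+ cells, neurons of the embryo, were 1.31-fold higher than ES-GFP- cells, past the limit of 0.25 on the log2 scale, but lower after quantile normalization and in the deposited log2 values. A single probe stands for *Nanog*, and what else it may bind was not tested.

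*Esrrb* (NM_001159500), an orphan nuclear receptor, had an intensity of 336 in ES-GFP+, 683 in ES-GFP- and 23.0 in MGE-GFP+ cells. Only the ES-GFP- value was above the control probes. It was 1.80-fold lower in ES-GFP+ than in ES-GFP- cells, a log2 difference of -0.85. In MGE-GFP+ cells it was 20.3-fold lower than in ES-GFP- cells and 11.3-fold lower than in ES-GFP+ cells. The second log2 difference, -3.50 between values within the control range, was -2.02 with normexp and -2.10 in the deposited values.

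*Zfp42* (NM_009556), the zinc finger gene also called Rex-1, had an intensity of 287 in ES-GFP+, 235 in ES-GFP- and 27.6 in MGE-GFP+ cells. Its ES-derived populations lay closer to each other than to MGE-GFP+ cells. The log2 difference between ES-GFP+ and ES-GFP- cells was 0.46, past the repeat-spot limit of 0.38, and 0.02 with scaling to the 50th percentile. Against MGE-GFP+ cells *Zfp42* was 5.81-fold higher in ES-GFP- and 8.01-fold higher in ES-GFP+ cells. The last log2 difference, with MGE-GFP+ cells lower, was smaller in other processing, -1.63 with normexp and -1.42 in the deposited values. The value of 287 was within the control range of its own array.

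*Utf1* (NM_009482), a chromatin-bound factor of undifferentiated ES cells, had an intensity of 91.5 in ES-GFP+, 609 in ES-GFP- and 65.1 in MGE-GFP+ cells. Relative to ES-GFP- cells it was 5.89-fold lower in ES-GFP+ and 6.38-fold lower in MGE-GFP+ cells. Both GFP+ populations were within the control range, and the log2 difference of -0.12 between them was within the repeat-spot limit of 0.53.

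*Dppa2* (NM_028615), a DNA-binding SAP-domain protein that acts as a pair with Dppa4, was dim. Its probe 1 had an intensity of 43.6 in ES-GFP+, 66.5 in ES-GFP- and 11.9 in MGE-GFP+ cells, and its probe 2 had 13.6, 22.3 and 2.8. Neither was above the control probes on any array. The log2 difference of -0.43 between ES-GFP+ and ES-GFP- cells, from probe 1 alone, was within the repeat-spot limit of 0.52. Probe 1 was not well above background in MGE-GFP+ cells, at least 3.76-fold lower than in ES-GFP- cells.

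The 3 probes of *Dppa4* (NM_028610) disagreed. Probe 1 had an intensity of 299 in ES-GFP+, 320 in ES-GFP- and 245 in MGE-GFP+ cells, and probe 2 had 55.1, 53.2 and 47.2, both with log2 differences within the repeat-spot limit in every pair. Probe 3 had 68.5, 5.4 and 2.8 and was well above background in ES-GFP+ cells only, at least 4.35-fold higher than in ES-GFP- cells. That 68.5 was below the median of the control probes on its array, which was 69.9. The gene's log2 difference of 0.81 between ES-GFP+ and ES-GFP- cells rests on probe 3, and it was -0.22 after quantile normalization and -0.0087 in the deposited log2 values.

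*Dppa5a* (NM_025274), also known as Esg1 and used as a marker of ES cells, had an intensity of 185 in ES-GFP+, 4732 in ES-GFP- and 39.2 in MGE-GFP+ cells. ES-GFP- cells stood far above the others and above all 106 control probes. In the contrast that chose it, *Dppa5a* was 22.6-fold lower in ES-GFP+ than in ES-GFP- cells, a log2 difference of -4.50. In MGE-GFP+ cells it was 82.4-fold lower than in ES-GFP- cells, a comparison that shares the ES-GFP- array with the first. MGE-GFP+ and ES-GFP+ cells, both within the control range, differed by 3.65-fold with MGE-GFP+ cells lower, a log2 difference of -1.87 that was -0.92 with normexp, -0.85 for quantile-normalized arrays and -0.43 by the deposited values.

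The 3 probes of *Tdgf1* (NM_011562) also disagreed. Probe 1 had an intensity of 515 in ES-GFP+, 610 in ES-GFP- and 432 in MGE-GFP+ cells, above the control probes on all arrays and within the repeat-spot limit in every pair. Probe 2 had 19.7, 115 and 5.8, and probe 3 had 16.1, 133 and 3.0, and both were well above background in ES-GFP- cells only. By these probes *Tdgf1* was at least 4.34-fold and at least 5.0-fold lower in ES-GFP+ than in ES-GFP- cells, and at least 6.51-fold and at least 7.5-fold lower in MGE-GFP+ cells. In ES-GFP- cells both were within the control range.

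*Alpl* (NM_007431) had an intensity of 93.5 in ES-GFP+, 2016 in ES-GFP- and 34.7 in MGE-GFP+ cells. ES-GFP- cells were high, above 105 of the 106 control probes, and the other populations were within the control range. Between the ES-derived populations, the contrast that selected it too, *Alpl* had a log2 difference of -4.26. In MGE-GFP+ cells it was 39.6-fold lower than in ES-GFP- cells and 2.07-fold lower than in ES-GFP+ cells, although the last difference turned to 0.41 on the log2 scale, MGE-GFP+ higher, after quantile normalization.

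**Figure D2:**
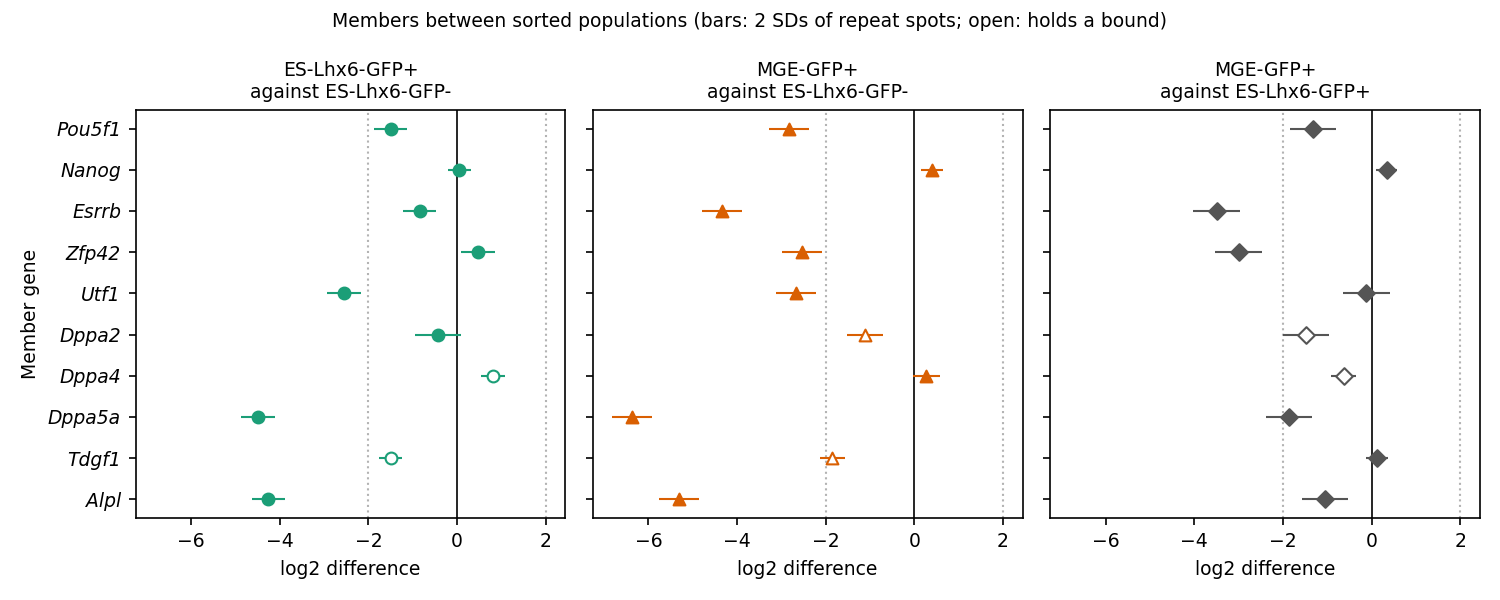
Log2 difference of each gene in the 3 pairs of arrays. Bars are 2 SDs of repeat spots, dotted lines mark 4-fold, and open symbols hold at least 1 probe at a bound. *Dppa5a* and *Alpl* lie farthest to the left against ES-GFP- cells, and *Nanog* lies near 0 in all 3 panels.

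Between ES-GFP+ and ES-GFP- cells, 7 of the 10 genes were lower and 3 higher, with a median log2 difference of -1.17. At least 4-fold lower were 3, *Utf1*, *Dppa5a* and *Alpl*, and 1.75% of the 18655 genes measured were too. Lower by more than 2 SDs of repeat spots were 6, beside 22.0% of all genes. *Zfp42* and *Dppa4* were higher by more than that, beside 47.9% of all genes, and 0 were at least 4-fold higher, beside 8.27%. Because this contrast chose members, nothing is read from these counts. The median of all genes was 0.27, and -0.18 with scaling to the 50th percentile, and the share of 4-fold differences that were higher was 82.5%, against 60.0% at the 50th percentile, 36.5% for quantile-normalized arrays and 27.8% for the deposited table. With all probes raised at least to the 95th percentile of the control probes, the log2 difference was -0.53 for *Pou5f1*, -0.52 for *Utf1*, -3.48 for *Dppa5a* and -2.25 for *Alpl*.

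Against the same ES-GFP- array, 8 of the 10 genes were lower in MGE-GFP+ cells and 2 (*Nanog* and *Dppa4*) higher, with a median log2 difference of -2.61 beside -0.06 for all genes. At least 4-fold lower were 6, *Pou5f1*, *Esrrb*, *Zfp42*, *Utf1*, *Dppa5a* and *Alpl*, beside 6.80% of the 17025 genes measured, and 8 were lower by more than 2 SDs, beside 36.5%. Higher by more than 2 SDs was 1, *Nanog*, beside 32.8%, and 0 were at least 4-fold higher, beside 1.69%. Because *Dppa5a* and *Alpl* were chosen through this same ES-GFP- array, nothing is read from these counts or from the median. With probes raised to the control range the count at 4-fold was 2, the selected genes *Dppa5a* with -4.41 and *Alpl* with -3.18 on the log2 scale. With the same floor *Pou5f1* had -1.46, *Esrrb* -1.62, *Utf1* -1.45 and *Zfp42* -0.081. The share of 4-fold differences of all genes that were higher was 19.9%, and 34.6% with the 50th percentile.

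Between the 2 GFP+ populations, 8 genes were lower in MGE-GFP+ than in ES-GFP+ cells and 2 higher, with a median log2 difference of -1.19 beside -0.36 for all 18580 genes. *Esrrb* and *Zfp42* were at least 4-fold lower, beside 13.5% of all genes, and 7 were lower by more than 2 SDs, beside 51.6%. Higher by more than 2 SDs was 1, *Nanog*, beside 25.7%, and 0 were at least 4-fold higher, beside 0.533%. The ES-GFP+ array also took part in the choice of *Dppa5a* and *Alpl*, so nothing is read from these counts or from the median. After quantile normalization 5 were lower, and with probes raised to the control range 0 were. The share of 4-fold differences of all genes that were higher was 3.80%, and 35.2%, 50.04% and 28.3% with, in this order, scaling to the median, quantile normalization and the deposited table.

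Of 25 further genes of the pluripotency network on the array, 17 were above the control probes in ES-GFP-, 7 in ES-GFP+ and 11 in MGE-GFP+ cells. Of all genes, 57.5%, 47.0% and 52.5% were, in the same order. In ES-GFP+ relative to ES-GFP- cells 16 were lower and 7 higher by more than 2 SDs, with a median of -0.75. Of all genes, 22.0% were lower and 47.9% higher by that limit. At least 4-fold lower was 1 and at least 4-fold higher were 2, beside 1.75% and 8.27% of all genes. *Fbxo15*, an Oct4 target that is not needed for pluripotency, had an intensity of 67.8 in ES-GFP+, 497 in ES-GFP- and 29.2 in MGE-GFP+ cells, with a log2 difference of -2.70 between the ES-derived populations. *Lin28a*, an inhibitor of let-7 processing, had -1.52 and *Tbx3*, a T-box factor, had -1.50. Among those that were higher was *Tet2* (0.45), which was above the control probes. Also higher were *Nr0b1* (at least 2.25), *Nr5a2* (1.62), *Prdm14* (1.69), *Dppa3* (1.82) and *Eras* (2.08), all within the control range on all 3 arrays. These genes were chosen for mention after their values were seen. *Sox2*, the partner of Oct4 and also a gene of neural progenitors, had 1355, 3026 and 2147 and was likewise mentioned after its values were seen.

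Genes of the formative and primed epiblast, the state that follows the naive one, showed no common direction. Of 12, 5 were lower and 6 higher in ES-GFP+ than in ES-GFP- cells by more than 2 SDs, with a median of -0.09. Of all genes, 22.0% were lower and 47.9% higher by that limit. *Sox3* (-1.62), *Otx2* (-1.11) and *Lef1* (-0.95) were lower, and *Pou3f1* (1.12), *Dnmt3a* (0.55) and *Cdh2* (0.24) higher, of which *Sox3*, *Otx2*, *Pou3f1* and *Cdh2* are also neural genes. Of 14 genes of Nodal and EGF-CFC signalling, in which Cripto acts as co-receptor, 4 were lower and 5 higher, beside the same shares. The ligand *Nodal* and its inhibitors *Lefty1* and *Lefty2* were within the control range on all arrays, with log2 differences of 0.15, 0.09 and 0.07. The receptor gene *Acvr1c*, named outside the naming rule given below and also within the control range on all arrays, differed by at least 2.39. Among the receptors and Smads above the control probes on at least 1 array, *Acvr1b* differed by 1.42, *Smad2* by 0.88 and *Acvr2a* by 0.48, and *Smad3* by -0.75, *Smad4* by -0.65 and *Acvr2b* by -0.45.

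Of 12 genes listed as paralogs of the 10 genes, 4 were lower and 3 higher by more than 2 SDs, with a median of 0.02. The shares of all genes were 22.0% lower and 47.9% higher. The POU genes *Pou5f2*, *Pou2f1* and *Pou2f2* differed by 0.02, -0.47 and -0.25 between ES-GFP+ and ES-GFP- cells. The nuclear receptors *Esrra* and *Esrrg* differed by -0.77 and 0.62, beside -0.85 for *Esrrb*. The zinc finger genes *Yy1* and *Yy2* differed by -0.32 and 0.51. The alkaline phosphatases *Akp3* and *Alppl2* differed by 0.06 and 0.72, and *Alpi* gave no value. *Cfc1*, the other EGF-CFC gene, differed by -0.26. *Dppa1*, which shares a name with the Dppa members but whose relation to them in sequence was not tested, differed by at least 1.32. *Dppa1*, *Yy2*, *Alppl2* and *Cfc1* were within the control range on every array.

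**Figure D3:**
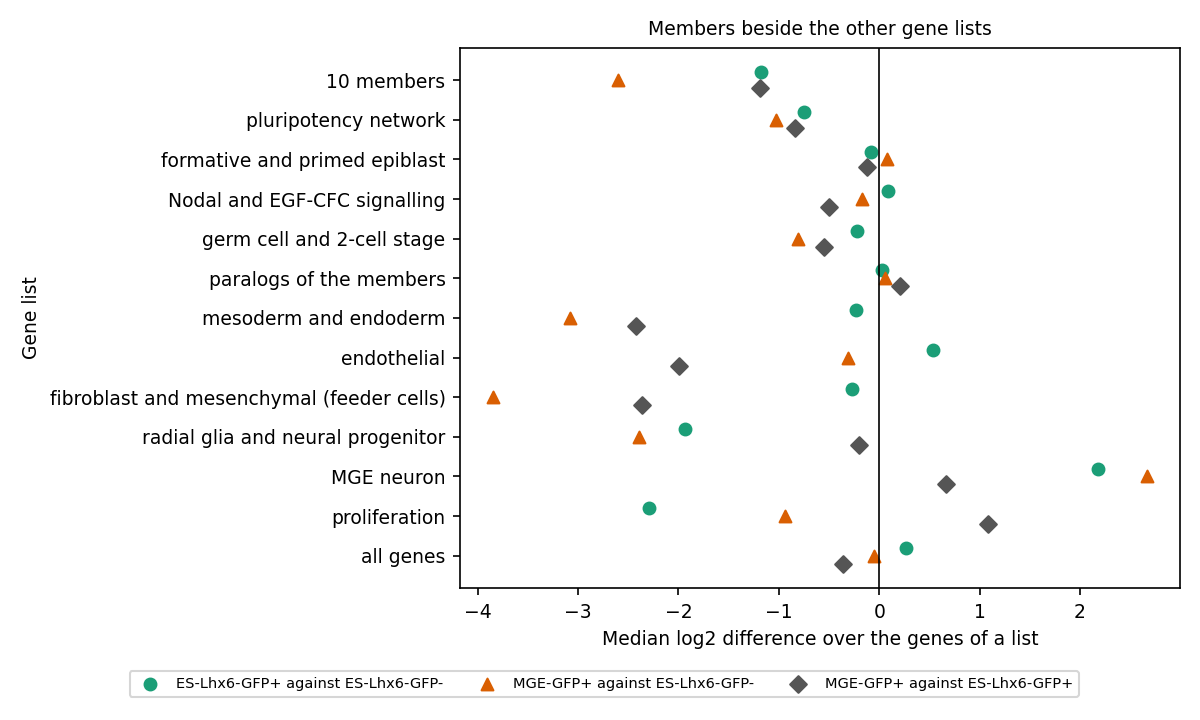
Median log2 difference over the 10 genes, over 11 other gene lists and over all genes, in the 3 pairs of arrays. The 10 genes lie at -1.17, -2.61 and -1.19, the MGE neuron genes at 2.18, 2.67 and 0.66, and the proliferation genes at -2.29, -0.94 and 1.09.

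Markers of other cell types also differed between the ES-derived populations, though not all lists in the same direction. All 10 radial glia and progenitor genes were lower in ES-GFP+ cells by more than 2 SDs, with a median of -1.94 and a summed intensity of 14.5 against 68.4 times the array's 75th percentile. Of 10 proliferation genes 9 were lower, with a median of -2.29 and summed levels of 4.60 against 22.2. Of 10 fibroblast genes, a list that includes what feeder cells make, 5 were lower and 3 higher by that limit. Their summed levels were 5.25 in ES-GFP+, 8.25 in ES-GFP- and 1.08 in MGE-GFP+ cells. Beside these list counts, 22.0% of all genes were lower and 47.9% higher by more than 2 SDs. *Dcn* (-2.99), *Pdgfrb* (-2.48) and *Fn1* (-1.80) were lower, while *Col1a1* differed by 0.53 and *Col3a1* by 0.18. Their part in the levels of the 10 genes was not tested.

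Of 15 mesoderm and endoderm genes, 6 were above the control probes in ES-GFP-, 1 in ES-GFP+ and 0 in MGE-GFP+ cells. Of all genes, 57.5%, 47.0% and 52.5% were, in the same order. Summed levels of the 15 genes were 8.65, 3.43 and 0.603. *Foxa2* and *Foxa1*, genes of endoderm and of the ventral midline, had log2 differences of -2.89 and -2.82 between ES-GFP+ and ES-GFP- cells, and *Ttr* of 0.12. The early mesoderm genes *T*, *Mixl1*, *Mesp1* and *Msgn1* were within the control range on all arrays. *Eomes*, also called Tbr2 and counted by the study among pallial markers, was above the control probes in ES-GFP- cells alone. Its log2 difference was -0.85. *Hnf4a*, within the control range on all arrays, differed by 3.50. Of 12 germ cell and early embryo genes, 3, 5 and 3 were above the control probes in ES-GFP+, ES-GFP- and MGE-GFP+ cells. Of all genes, 47.0%, 57.5% and 52.5% were, in that order. Summed levels of the 12 genes were 4.70, 4.67 and 4.42. *Dazl* and *Ddx4* were within the control range on all arrays. *Prdm1*, *Nanos3* and *Kit*, which other cells also make, were above the control probes on all arrays and differed by -0.0083, 0.20 and 0.91 between ES-GFP+ and ES-GFP- cells, and *Tex19.1*, which ES cells share, differed by -1.46. Of 8 endothelial genes 2 were lower and 4 higher by more than 2 SDs, beside 22.0% and 47.9% of all genes. Summed levels of the list were 3.02, 4.39 and 2.34. *Egfl7* differed by -1.98 and *Esam* by 2.19, while *Pecam1* and *Cdh5* were within the control range on all arrays. The part of these cells in the levels of *Alpl* was not tested.

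Across the 3 arrays, likeness of pattern was measured as the root mean square distance of centred log2 levels, as a description with 3 points. It was taken over 11999 genes with a probe well above background on all 3 arrays and above the control probes on at least 1. Genes lacking the background call on any array could not be neighbours. The genes nearest to *Dppa5a* were *Fbln2* (0.31), *Slc1a3* (0.33) and *Pigp* (0.39). Those nearest to *Alpl* were *Fndc5* (0.23), *Neurog2* (0.25) and *Notch3* (0.27), with 0 genes within 0.2 of either. *Dppa5a* and *Alpl* were selected on a difference that is part of this pattern, so nothing is read from that count. *Pou5f1* had 105 genes within 0.2, with *Lmx1b*, *Map7* and *Lgr4* nearest. *Esrrb* had 13, with *Bhlhe40*, *Col4a2* and *C1ql4* nearest. *Zfp42* had 35, *Ajuba* and *Acad12* among the nearest, and *Utf1* had 35, led by *Six3os1*, *Jag1* and *Qk*. The flat probes of *Nanog*, *Dppa4* and *Tdgf1* had 3227, 3411 and 3372 genes within 0.2.

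**Figure D4:**
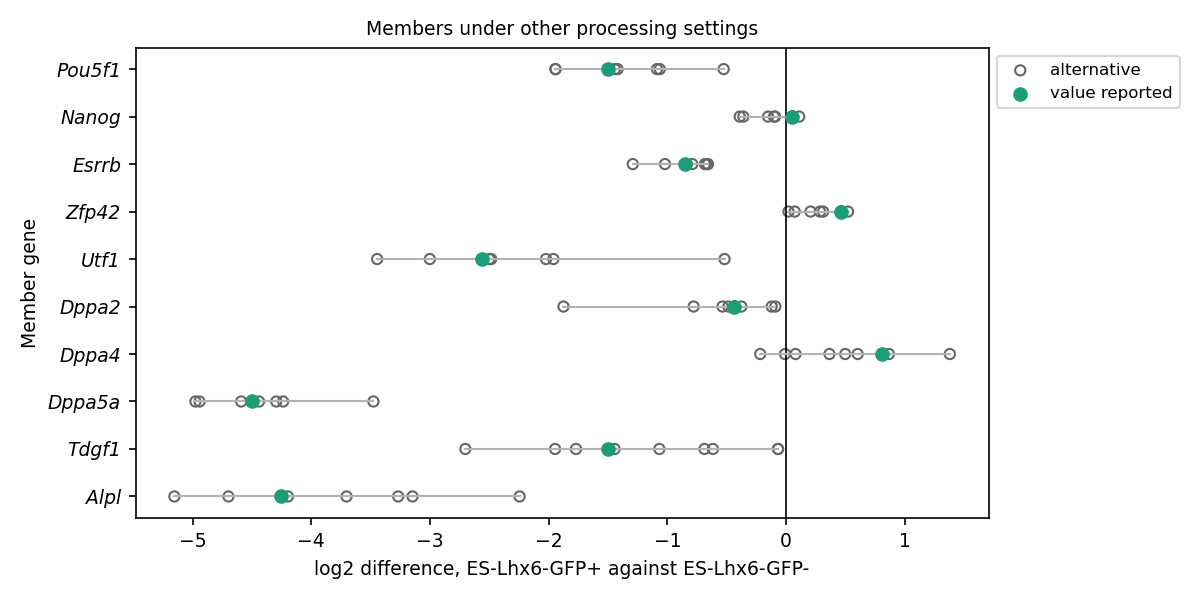
Log2 difference between ES-GFP+ and ES-GFP- cells as reported (filled) and under each alternative processing (open). *Dppa5a* stayed between -4.98 and -3.48 and *Alpl* between -5.15 and -2.25, while *Dppa4* and *Nanog* lay on both sides of 0.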

How the data were processed

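Total RNA of 3 sorted populations was measured on 1 array each, all on 1 slide. The authors deposited Feature Extraction 10.7.3.1 output, in which each spot has a background-subtracted intensity on a linear scale, not scaled between arrays. They also deposited a table of log2 values with no stated scale, and each of its columns lay within 0.21 of quantile-normalized log2 median spot signals, with medians of 7.69, 7.68 and 7.69. The labels name a kit for low RNA input and a smaller array format, while the study's methods describe whole transcriptome amplification and the format with 62976 spots found in the files.

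From the scanner values, spots with outlier flags (269, 310 and 130) were left out, repeat spots were averaged, log2 was taken and the 75th percentile over 55681 mouse probes was subtracted. There were 0 saturated spots. A probe called well above background on fewer than 0.5 of its spots was raised to the lowest value of a called probe on its array, unless already higher. Folds against it are lower bounds. A probe with the call on neither array gave no value. The same held for a probe called on 1 array whose value there was not above the raised value of the other array. Probes with a value were averaged per gene. The RefSeq table of GRCm38.p6 named 26582 probes. Error is the SD of log2 intensity of probes with at least 5 spots, from 0.166 to 0.204 within and from 0.0809 to 0.0926 above the control range. It holds no variation between cultures, embryos or sorts. The steps were tested on simulated data in which only bright genes were changed, so changes of dim probes were not simulated. Python 3.11.15, numpy 2.4.6, pandas 2.3.3, R 4.3.3 and limma 3.58.1 were used. Normexp used the median spot signal with an offset of 50, since the files hold no mean signal.

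The 10 genes, the 11 other lists and the alternatives were chosen with earlier results of these data known. Named were all 10 genes, up to 3 genes per list and direction with the largest difference between the ES-derived populations among those above the control probes on at least 1 array, all paralogs, and the 3 nearest patterns of each gene above the control probes. *Tet1* was on the list of the pluripotency network but matched no probe. Genes named outside this rule are marked where they appear, or are markers of the sort, defining markers of a cell type or Nodal and its inhibitors. A few genes that the rule names are not reported here.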

Additional observations from a re-analysis of the deposited data

How the results depend on the processing

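Of 287 values of the 10 genes under 10 alternatives, 136 moved by less than 1 SD of a difference between repeat spots, 138 moved by more, and 13 whose reported value passed 2 SDs changed direction. *Dppa4* between MGE-GFP+ and ES-GFP+ cells turned to 0.12 with the 50th percentile, 0.68 with quantile normalization, 0.18 in the deposited log2 values and 0.086 with its brightest probe, and between ES-GFP+ and ES-GFP- cells to -0.22 and -0.0087 with quantile normalization and the deposited values. *Nanog* turned against ES-GFP- cells in MGE-GFP+ cells (-0.21 with quantile normalization, -0.29 deposited) and against ES-GFP+ cells (-0.054 with quantile normalization). Between MGE-GFP+ and ES-GFP+ cells *Alpl* turned to 0.41 with quantile normalization and *Dppa2* to 0.43 in the deposited values. *Tdgf1* between MGE-GFP+ and ES-GFP- cells turned to 0.054 with a floor at the control probes or with its brightest probe. The count of genes lower in MGE-GFP+ than in ES-GFP+ cells went from 8 to 5 with quantile normalization and to 0 with the control floor, where only *Nanog* and *Tdgf1* had a value. The count at least 4-fold lower went from 6 to 3 with normexp or the deposited values and 2 with the control floor against ES-GFP- cells, and from 2 to 1 with normexp, signals without background subtraction or the deposited values and 0 with the control floor against ES-GFP+ cells. By alternatives chosen after seeing the data, 10 genes passed the 95th percentile of the 3xSLv negative control spots on the ES-GFP+ and the MGE-GFP+ arrays, and 5 on the ES-GFP+ array passed when the limit from the control probes was their 90th percentile. Of 330 list medians 10 that had passed 2 SDs changed direction: germ cell genes in MGE-GFP+ against ES-GFP+ cells (0.20 with the 50th percentile, 0.014 with quantile normalization, 0.13 with the control floor) and against ES-GFP- cells (0.13 with the control floor), endothelial genes between the ES-derived populations (-0.38 with quantile normalization, -0.32 deposited, -0.18 with the control floor), and the pluripotency network in MGE-GFP+ against ES-GFP+ cells (0.026 with quantile normalization, 0.13 deposited, 0.70 with the control floor). Beyond the floors' own construction, the cause was not tested. The control floor gave no value for *Dppa2* in any pair, nor for *Zfp42* and *Dppa4* between the ES-derived populations. No paired analysis was possible because each population had 1 array. Signals within the control range limit what can be said of the GFP+ populations.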
